A study of Rattus norvegicus with 22 samples.

Results

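The liver transcripts that differed between female rats born to obese and to control mothers were described one by one. The groups were 5 female offspring of mothers on an obesogenic diet (maternal obesity, MO) and 6 female offspring of mothers on a control diet (C), all Wistar rats at postnatal day 110, which are 11 of the 22 animals sequenced. Each animal gave 1 liver RNA-seq library made with a TruSeq RNA kit, and the groups share strain, age and tissue. The members are all rows of the smaller of the deposited tables, 69 of 1434 rows in all, and 67 of them are described by name. Each row is a RefSeq transcript, and Lmo2 has 2 rows. For 21 rows the gene has several curated transcripts. These include the rows of Smad2, Mx1, Sgk1, Adarb1, Grn, Sepp1, Rpp14, Runx2, Obp3, Mocs2, Flot2 and Gng2. Each such row gives the value of its transcript and not of the gene. The authors listed these rows for a difference in this very comparison, so every count and p-value below describes a selected list and gives no support for an effect across the transcriptome. In the authors' deposited table only 2 rows had a p-value of 0.05 or more, and the smallest difference was 0.48 on the log2 scale.

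Several of the listed genes belong to well-known systems of the liver. Metallothioneins are small cysteine-rich proteins that bind zinc and copper, and hepatocytes make more of them when metal, glucocorticoid or inflammatory signals rise. Insulin-like growth factor binding proteins carry insulin-like growth factors in blood, and the liver secretes Igfbp1 in fasting and less of it when insulin is high. Liver glucose metabolism runs in both directions, with aldolase and enolase on the glycolytic path and the glucagon receptor driving glucose output.

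Mt1a, Mt2A and Igfbp1 had the highest levels of the table. For these and Igfbp2 the 250 bases before the annotated start are printed, because the members of each pair changed in the same direction. The sequences are RefSeq's, on build GRCr8, from chr19:10838709-10838958 (minus strand) for Mt2A, chr19:10832976-10833225 (minus strand) for Mt1a, chr14:86261027-86261276 (plus strand) for Igfbp1 and chr9:81864561-81864810 (plus strand) for Igfbp2. Capitals mark matches to a metal response core (TGCACNC or TGCGCNC, both strands) in the metallothioneins and to an insulin response core (CAAAACA, both strands) in the binding proteins.
Mt2A: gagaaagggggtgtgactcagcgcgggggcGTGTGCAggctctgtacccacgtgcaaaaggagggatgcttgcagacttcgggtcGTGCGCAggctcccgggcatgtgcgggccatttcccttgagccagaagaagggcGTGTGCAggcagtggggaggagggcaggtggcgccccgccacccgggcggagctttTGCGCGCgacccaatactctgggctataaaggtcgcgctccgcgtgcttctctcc
Mt1a: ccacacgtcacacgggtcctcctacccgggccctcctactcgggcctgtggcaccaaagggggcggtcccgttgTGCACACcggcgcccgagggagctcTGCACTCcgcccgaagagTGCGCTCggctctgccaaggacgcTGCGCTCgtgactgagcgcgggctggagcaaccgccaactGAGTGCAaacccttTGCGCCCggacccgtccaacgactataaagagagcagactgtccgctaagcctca
Igfbp1: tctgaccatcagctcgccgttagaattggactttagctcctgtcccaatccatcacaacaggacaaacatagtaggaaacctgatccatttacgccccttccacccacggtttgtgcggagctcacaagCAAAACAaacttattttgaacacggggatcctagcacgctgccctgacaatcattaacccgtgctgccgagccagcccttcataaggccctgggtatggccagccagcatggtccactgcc
Igfbp2: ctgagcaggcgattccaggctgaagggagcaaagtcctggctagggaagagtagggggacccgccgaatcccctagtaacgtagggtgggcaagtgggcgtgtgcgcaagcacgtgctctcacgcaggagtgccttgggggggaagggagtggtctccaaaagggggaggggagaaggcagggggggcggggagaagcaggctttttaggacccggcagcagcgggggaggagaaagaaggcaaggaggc
The Mt2A stretch held 4 metal response cores, at 220, 165, 111 and 55 bases before the start, and the Mt1a stretch held 6. The Igfbp2 window held 1, not in capitals, 149 bases before its start, and the Igfbp1 window held 0. Of 33469 promoters of the same length, 20.6% held at least 1 such core and 1.17% held 3 or more. The insulin response core occurred once upstream of Igfbp1, 121 bases before the start, and not in the Igfbp2 window, against 5.46% of promoters with a match. A glucocorticoid receptor half-site (AGAACA, both strands) was in none of the 4 windows and in 17.5% of promoters. These matches are letters in a window, and no binding was measured.

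Values are in RPM, which brings the reads of every library to the same total, and a difference is the mean log2(RPM + 1) of MO animals minus that of controls, a scale that understates the change of low transcripts. A row passed where limma's moderated test gave an adjusted p under 0.05 with Benjamini-Hochberg adjustment over the 69 rows. Animals are named by group and replicate number, as MO 3 or control 4, and the labels give no litters, so a p-value speaks only of the spread over these animals. In bulk liver, fewer cells of a type and less RNA per cell cannot be told apart.

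In MO females the metallothioneins Mt2A and Mt1a, transcripts of the glycolytic genes Aldoa and Eno1, and a noncoding transcript of the glucagon receptor gene Gcgr rose, and none of these 5 rows passed without controls 3 and 4. The binding proteins Igfbp1 and Igfbp2, the pantetheinase Vnn1, the calcium pump Atp2a2 and the elastase Cela1 fell. Among the 69 rows 45 were higher and 24 lower in MO females. Of these 56 passed, 81.2% of the rows. The passing rows were 35 higher (50.7%) and 21 lower (30.4%). With each library centred on its median over the listed rows, 21 higher and 24 lower rows passed. That centring removed a shift of 0.23 on the log2 scale between the groups' library medians, so it lowers every difference by that amount. Those medians are of rows selected for this comparison, most of them higher in MO. Centring thus takes away part of the selected difference, and it is no check of library scale. The median difference was -1.09 over the lower rows, 0.75 over the higher rows and 0.59 over all 69 rows. The higher rows had lower levels, with a median of 2.24 RPM against 4.3 RPM, and on this scale low levels shrink a difference. Whether level accounts for the unequal median differences was not tested. Most rows were low: 45 had a mean under 5 RPM, 12 were under 1 RPM and 5 were over 50 RPM. The groups did not overlap in 7 rows (10.1%), of which 4 were higher in MO (5.8%: Apba2, Aldoa, Pde6c and Ccdc92) and 3 lower (4.35%: Cela1, Vnn1 and LOC257642). An exact two-sided permutation test of each row over the animals, with the same adjustment, kept 4 rows (Apba2, Pde6c, Cela1 and Vnn1, adjusted p = 0.0373 each). With so few animals this test can give no p-value under 0.00216, and only rows at that value were kept. The next rows had a permutation adjusted p of 0.0550, so the small count partly reflects the test's resolution.

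**Figure D1:**
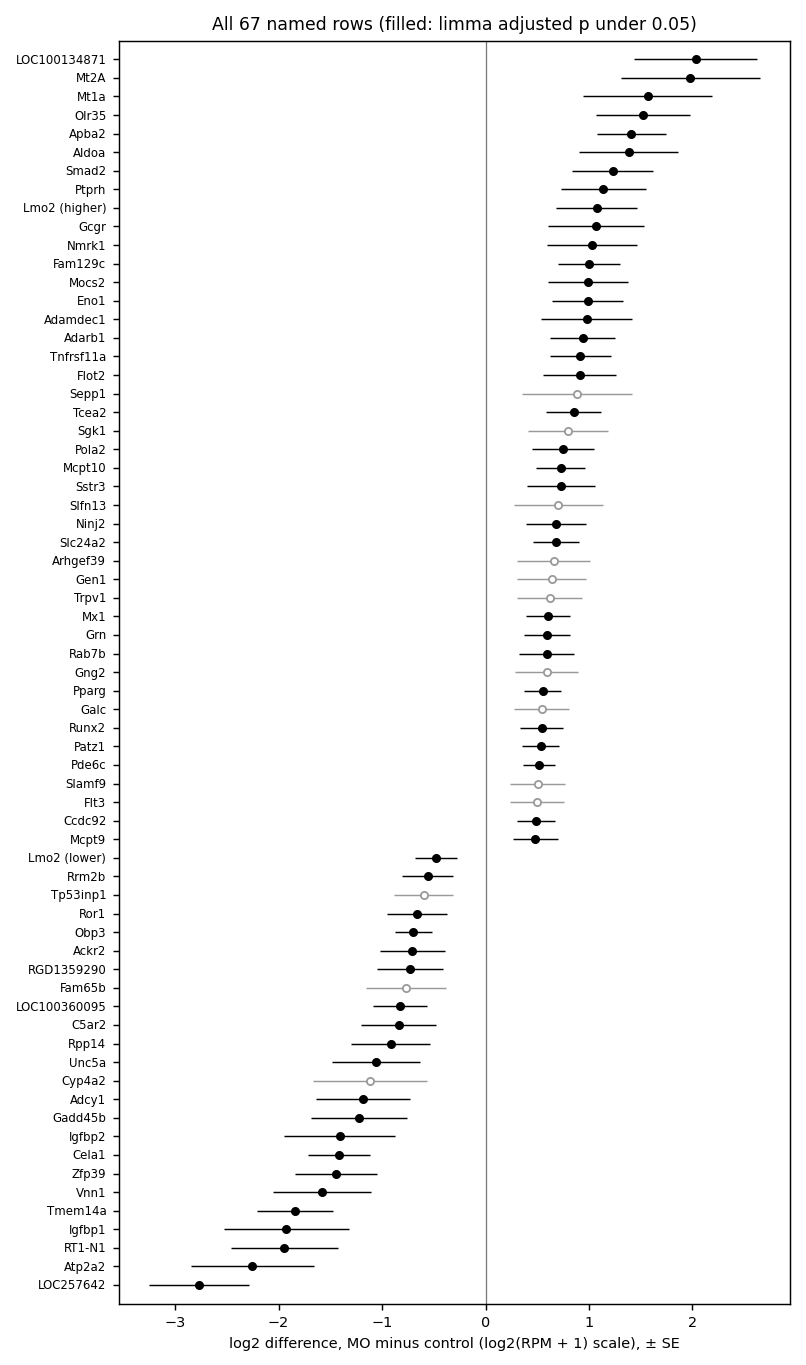
Difference of each of the 67 named rows (MO minus control, log2(RPM + 1) scale), with its standard error as a bar (6 control and 5 MO females). Filled points passed limma's test and open points did not. The 43 higher rows reach 2.03 at LOC100134871 and the 24 lower rows reach -2.77 at LOC257642.

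Libraries differed in ways that touched these counts. Depth read from the values was 9170000 to 11770000 reads in controls and 10470000 to 11710000 in MO animals, so that 1 read was worth 0.0850 to 0.109 RPM. Controls 3 and 4 stood low: among the 45 higher rows control 3 was the lowest control in 18 and control 4 in 16, and among the 24 lower rows they were lowest in 10 and 11. Within the MO group, MO 1 was lowest in 33 of the 45 higher rows and 15 of the 24 lower rows, and MO 3 was highest in 25 and 14. With controls 3 and 4 left out together, an alternative chosen after seeing the values, 24 of the named higher rows and 1 lower row (Ackr2) no longer passed. With MO 1 and MO 3 left out together, 12 higher and 6 lower rows no longer passed. Library numbers in the labels do not interleave between the groups, so library order and maternal diet cannot be told apart. No library pair held identical values.

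**Figure D2:**
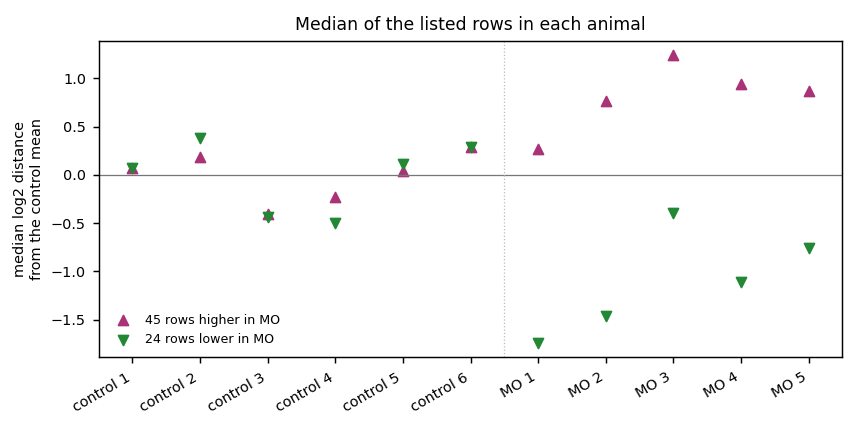
Median distance from the control mean (log2(RPM + 1) scale) over the 45 higher rows and over the 24 lower rows, for each animal. Controls 3 and 4 lie below 0 in both sets, at -0.40 and -0.23 in higher rows and -0.44 and -0.50 in lower rows, and MO 1 has the smallest MO median in higher rows (0.27) and the most negative in lower rows (-1.74).

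Both metallothionein rows rose, 2 of the 21 genes of the metallothionein and metal ion list. Mt2A was measured at 277, 349, 1488, 706 and 580.4 RPM in MO 1 to MO 5, and controls ran from 37.4 through a median of 157 to 473 RPM. Of the MO animals 3 lay above all controls, while MO 1 and MO 2 fell inside the control range. The means were 217 ± 189.7 RPM (SD, n = 6) in controls and 680.0 ± 484 RPM (SD, n = 5) in MO, a difference of 1.98 ± 0.67 (SE; limma adjusted p = 0.0179). Mt1a, which RefSeq now names Mt1, was at 549.5, 818, 3058, 1173 and 884 RPM in MO animals and at 127 to 944 RPM in controls, with a median of 319 RPM. Only MO 3 and MO 4 exceeded all controls for Mt1a, and MO 3 held the highest value of both genes. Its difference was 1.57 ± 0.63 (SE; limma adjusted p = 0.0313), and the gene lost the call when 1 of 7 animals was left out (control 1, 3, 4 or 5, or MO 2, 3 or 4; limma adjusted p 0.0515 to 0.0703). Without controls 3 and 4 neither passed (Mt2A 1.66, limma adjusted p = 0.0654; Mt1a 1.15, limma adjusted p = 0.134). These 2 genes are neighbours in RefSeq's order with 0 protein-coding genes between them, and reads shared between such similar transcripts were assigned by a rule that the labels do not state.

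Both listed insulin-like growth factor binding proteins fell, 2 of the 16 genes of that list. Igfbp1 stood at 31.6, 51.0, 217, 49.3 and 133 RPM in MO 1 to MO 5, against a lowest, median and highest control of 139, 296 and 589.7 RPM. Every MO animal except MO 3 was below all controls. The mean fell from 329 ± 182 RPM (SD, n = 6) in controls to 96.3 ± 77.9 RPM (SD, n = 5), with a difference of -1.93 ± 0.60 (SE; limma adjusted p = 0.0142). Igfbp1 passed with any 1 animal left out and also without controls 3 and 4 (-2.17, limma adjusted p = 0.0177). Igfbp2, which hepatocytes also secrete, was at 5.18, 6.28, 10.985, 10.8 and 42.3 RPM in MO animals and at 14.8, 32.4 and 68.8 RPM in the lowest, median and highest control. The MO animals MO 1 to MO 4 were below all controls, whereas MO 5 lay above the control median. The Igfbp2 difference was -1.41 ± 0.54 (SE; limma adjusted p = 0.0269), and it did not pass without control 6, MO 1 or MO 2 (limma adjusted p 0.0542 to 0.0682) or without MO 1 and MO 3 together (-1.07, limma adjusted p = 0.114).

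Adcy1, an adenylate cyclase that makes cyclic AMP, is the gene next to Igfbp1 in RefSeq's order, with 0 protein-coding genes between. Its MO values were 2.27, 2.00, 10.1, 5.01 and 5.12 RPM, and its controls ran from 3.64 through 12.1 to 23.7 RPM. MO 1 and MO 2 were below all controls, and the other MO animals overlapped only with control 3 or with controls 1 and 3. Adcy1 fell by 1.19 ± 0.45 log2 units (SE; limma adjusted p = 0.0269) and lost the call without control 6, MO 1 or MO 2 (limma adjusted p 0.0542 to 0.0762).

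**Figure D3:**
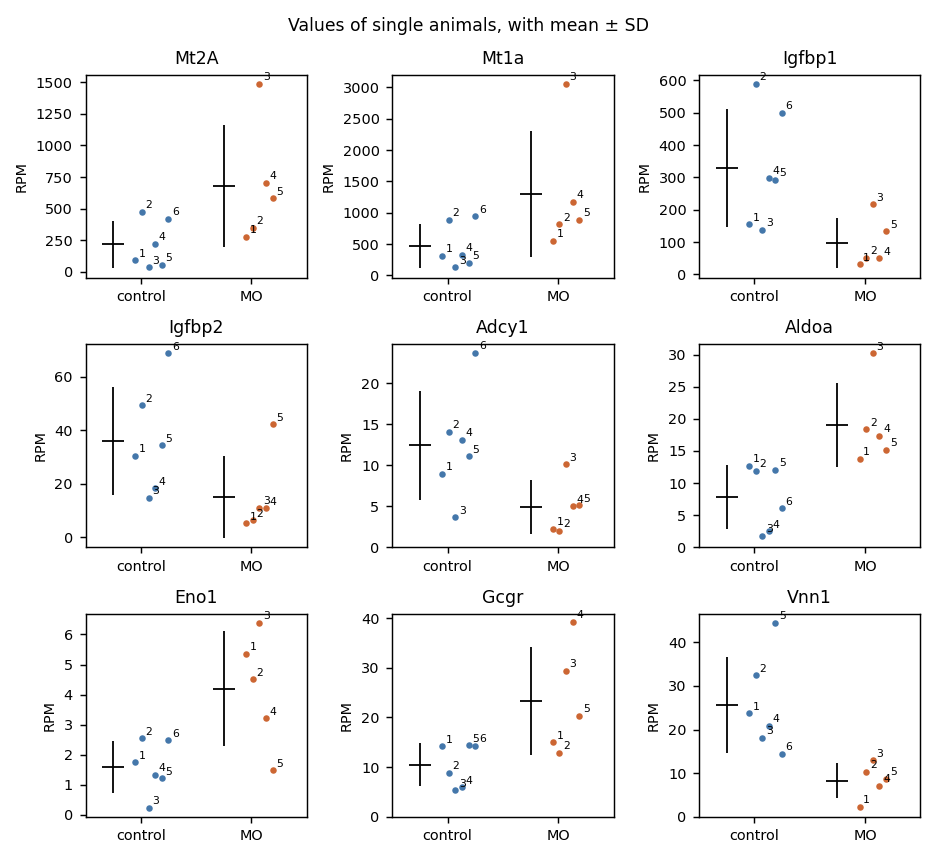
RPM of each animal for 9 genes, of metal binding, growth factor binding, glucose metabolism and pantetheine recycling (Vnn1), with the mean and SD of 6 control and 5 MO females as a cross and bar. Numbers are replicate numbers. MO 3 is the highest MO animal for Mt2A, Mt1a, Igfbp1, Adcy1, Aldoa, Eno1 and Vnn1, and only the Aldoa and Vnn1 groups do not overlap.

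From the glycolysis list of 27 genes, Aldoa and Eno1 are described, and both rose. Each of these rows is 1 of several curated transcripts of its gene (3 for Aldoa and 2 for Eno1) and the other transcripts are not analysed here, so the values are of that transcript and not of the gene. Aldoa, the aldolase that splits fructose bisphosphate, was at 13.8, 18.3, 30.2, 17.4 and 15.2 RPM in MO animals. Its controls were at 12.7, 11.9, 1.81, 2.49, 12.1 and 6.07 RPM, so every MO animal was above every control, and controls 3 and 4 were far below the others. The mean went from 7.85 ± 5.03 RPM (SD, n = 6) in controls to 19.0 ± 6.55 RPM (SD, n = 5), a difference of 1.39 ± 0.48 (SE; limma adjusted p = 0.0183). Without controls 3 and 4 the Aldoa difference was 0.77 (limma adjusted p = 0.103). Eno1, a glycolytic enolase, stood at 5.36, 4.51, 6.39, 3.21 and 1.48 RPM in MO animals and at 0.244, 1.54 and 2.54 RPM in the lowest, median and highest control. MO 5 was inside the control range and the other 4 were above it. The Eno1 difference was 0.99 ± 0.34 (SE; limma adjusted p = 0.0183), and 0.72 without controls 3 and 4 (limma adjusted p = 0.082).

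Gcgr, the glucagon receptor, was the only one of 25 genes of gluconeogenesis, glycogen and glucagon signalling with a row. The row is a noncoding transcript by its RefSeq accession type (NR) and 1 of 3 curated for the gene. Its values in MO animals were 15.0, 12.9, 29.3, 39.2 and 20.4 RPM, and in controls 5.30, 11.5 and 14.4 RPM at the lowest, median and highest. Only MO 2 overlapped with the controls. Gcgr rose by 1.07 ± 0.46 log2 units (SE; limma adjusted p = 0.0409), and the call was lost without control 2, 3 or 4 or without MO 3, 4 or 5 (limma adjusted p 0.059 to 0.12). Without controls 3 and 4 together its difference was 0.72 (limma adjusted p = 0.141).

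No row was listed for 28 genes of fatty acid, triglyceride and cholesterol synthesis, 14 of bile acid and steroid metabolism, 43 of xenobiotic metabolism, 42 of amino acid and urea metabolism, 23 of the circadian clock and 13 heat shock proteins. Because the table holds only selected rows, this gives no level for those genes.

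Lipid-linked rows went both ways, and of the 32 PPAR target and fatty acid oxidation genes 3 had a row. Vnn1, a pantetheinase that recycles the vitamin part of coenzyme A and a known PPAR-alpha target, was at 2.27, 10.3, 12.99, 7.12 and 8.71 RPM in MO animals. Controls ran from 14.4 through 22.3 to 44.5 RPM, so all MO animals were below all controls. Vnn1 fell by 1.58 ± 0.47 log2 units (SE; limma adjusted p = 0.0125), a mean of 25.7 ± 11.04 RPM (SD, n = 6) against 8.28 ± 3.99 RPM (SD, n = 5), and it passed with any 1 animal left out. Pparg, the nuclear receptor of fat cells, was listed by 1 of its 3 transcripts at 0.767, 1.20, 0.932, 0.132 and 0.0690 RPM in MO animals. Of the controls, control 6 was at 0.342 RPM and the other 5 at 0.0304 RPM or less, and MO 1 to MO 3 were above all of them. Pparg rose by 0.55 ± 0.18 log2 units (SE; limma adjusted p = 0.0153) but did not pass after centring, which lowers every difference (0.33, limma adjusted p = 0.274). Nor did Pparg pass without controls 3 and 4 (0.53, limma adjusted p = 0.0541). Cyp4a2, a fatty acid omega-hydroxylase with higher expression in male rat liver, was the most abundant row that did not pass. Its MO values were 23.5, 33.3, 139, 51.4 and 80.5 RPM against 72.1, 123 and 197 RPM at the lowest, median and highest control, with MO 1, MO 2 and MO 4 below all controls. The Cyp4a2 difference was -1.12 ± 0.55 (SE; limma adjusted p = 0.0614). After centring, which lowers every difference, it passed (-1.34, limma adjusted p = 0.00707).

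Obp3, a lipocalin of the group made mainly by male rat liver, was the other of 2 rows from 30 sex-biased liver genes. It was at 0, 0.0000100, 0, 0.00687 and 0.000700 RPM in MO animals, and at 0.00280, 0.733 and 1.23 RPM in the lowest, median and highest control. Control 4, at the lowest control value, lay inside the MO range, and the other controls did not. Obp3 fell by 0.70 ± 0.18 log2 units (SE; limma adjusted p = 0.00639). All of these values are low and partly fractions of a read, and close relatives of the gene can share its reads. The sphingolipid enzyme Galc did not pass (0.54 ± 0.27, SE; limma adjusted p = 0.0593). Flot2, a membrane raft protein listed by a noncoding transcript, rose from 1.86 ± 1.35 RPM (SD, n = 6) in controls to 4.22 ± 1.92 RPM (SD, n = 5). It lost the call when any 1 of 5 animals was left out.

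**Figure D4:**
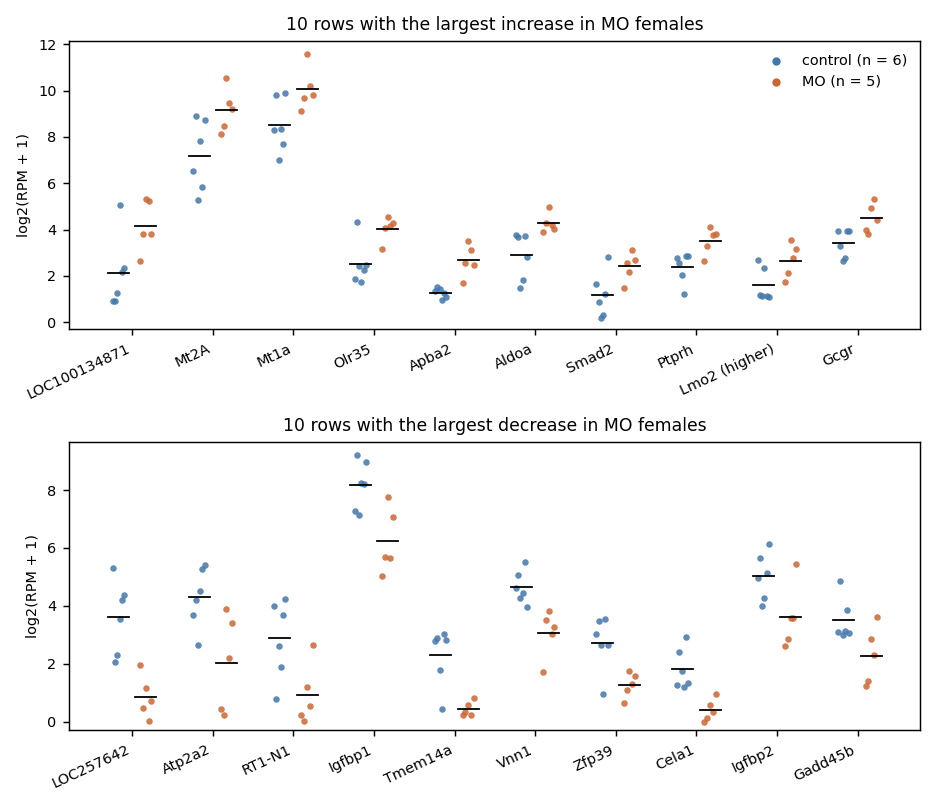
Values of single animals (log2(RPM + 1)) for the 10 named rows with the largest increase and the 10 with the largest decrease in MO females, with group means as lines (6 control and 5 MO animals). All MO animals lie above all controls for Apba2 and Aldoa, and below them for LOC257642, Vnn1 and Cela1.

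The largest fall after that of LOC257642 was that of Atp2a2, the SERCA calcium pump of the endoplasmic reticulum and 1 of 23 genes of the calcium and protein folding list. The listed transcript, 1 of 3, was at 0.366, 0.168, 13.9, 3.58 and 9.62 RPM in MO animals, and controls ran from 5.22 through 19.6 to 41.4 RPM. MO 1, MO 2 and MO 4 were below all controls, and MO 3 and MO 5 overlapped with controls. Atp2a2 fell by 2.25 ± 0.59 log2 units (SE; limma adjusted p = 0.00749), and by 2.61 without controls 3 and 4. Tmem14a, a small membrane protein, stood at 0.182, 0.273, 0.478, 0.176 and 0.768 RPM in MO animals. Among its controls control 4 was at 0.340 RPM and the others at 2.45 to 7.09 RPM, so that only control 4 overlapped with the MO group. The Tmem14a difference was -1.84 ± 0.36 (SE; limma adjusted p = 0.000789).

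Other membrane transport rows were low. Slc24a2, a sodium, calcium and potassium exchanger, was at 0.0910, 1.28, 1.72, 1.41 and 1.79 RPM in MO animals, where MO 1 had 1 read, and at 0.170 to 0.533 RPM in controls. MO 1 was below all controls and the other 4 MO animals were above them, and the row rose by 0.68 ± 0.22 log2 units (SE; limma adjusted p = 0.0153). Without controls 3 and 4 Slc24a2 did not pass (0.61, limma adjusted p = 0.0576). Trpv1, the capsaicin-gated cation channel, did not pass (1.88 ± 0.869 RPM, SD, n = 6, against 3.404 ± 1.23 RPM, SD, n = 5).

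Signalling genes of growth factor pathways moved in both directions. Smad2, which carries TGF-beta signals to the nucleus, was at 1.79, 4.83, 3.53, 7.73 and 5.496 RPM in MO animals and at 0.137, 1.07 and 5.94 RPM at the lowest, median and highest control. Controls 1 and 6 lay inside the MO range. Smad2 rose by 1.23 ± 0.40 log2 units (SE; limma adjusted p = 0.0153), and by 0.77 without controls 3 and 4, which did not pass (limma adjusted p = 0.109). The Smad2 row is 1 of 2 curated transcripts, so its values are not those of the gene. Gadd45b, a stress-induced regulator of p38 kinase signalling, was at 1.36, 1.64, 6.21, 3.87 and 11.4 RPM in MO animals, and at 6.998, 7.68 and 28.1 RPM at the lowest, median and highest control. All MO animals except MO 5 were below all controls. Gadd45b fell by 1.22 ± 0.46 log2 units (SE; limma adjusted p = 0.0269) and lost the call without control 2, MO 1 or MO 2 (limma adjusted p 0.0578 to 0.0762). Both belong to the TGF-beta and growth factor list of 26 genes, which had no other row.

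Sgk1, a kinase induced by glucocorticoids, is the third gene of the glucocorticoid and fasting list (25 genes, 5 rows) beside the metallothioneins on the higher side. It was at 4.69, 5.10, 7.74, 10.9 and 8.01 RPM in MO animals and at 1.56, 3.81 and 6.64 RPM at the lowest, median and highest control, with MO 3 to MO 5 above all controls, and it did not pass (0.79 ± 0.39, SE; limma adjusted p = 0.0593). In the authors' deposited table Sgk1 has a p-value of 0.16519 and a log2 size of 0.607, which its deposited values do not give. The lower members of that list were Igfbp1 and Gadd45b, so 2 of its rows rose, 2 fell and 1 did not pass.

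Ptprh, a receptor-type tyrosine phosphatase, was at 5.27, 8.82, 16.3, 12.5 and 12.9 RPM in MO animals and at 1.36 to 6.23 RPM in controls, with a median of 5.38 RPM. MO 1 was the only MO animal inside the control range. Ptprh rose by 1.14 ± 0.41 log2 units (SE; limma adjusted p = 0.0232), and by 0.76 without controls 3 and 4, which did not pass (limma adjusted p = 0.0854). The receptor-like kinase Ror1 fell from 2.17 ± 0.806 RPM (SD, n = 6) in controls to 1.05 ± 0.752 RPM (SD, n = 5), and the netrin receptor Unc5a from 9.35 ± 3.11 RPM (SD, n = 6) in controls to 4.72 ± 4.29 RPM (SD, n = 5), where MO 3 at 12.1 RPM was alone among MO animals in the control range. Both calls depended on single animals: Ror1 had a limma adjusted p of 0.114 without MO 1, and Unc5a one of 0.0802 without MO 5.

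Other rows encode receptors, enzymes and regulators of G protein and cyclic nucleotide signalling. Olr35, an olfactory receptor, was at 8.003, 15.6, 22.3, 16.7 and 18.6 RPM in MO animals, and the controls ran from 2.38 through 4.14 to 19.0 RPM. Control 2 held that highest value and the other 5 controls, at 4.49 RPM or less, were below all MO animals. Olr35 rose by 1.52 ± 0.46 log2 units (SE; limma adjusted p = 0.0125). Pde6c, the cone photoreceptor phosphodiesterase, had 5 to 12 reads in each MO animal and 0 to 2 in each control, which is 0.649 ± 0.255 RPM (SD, n = 5) against 0.144 ± 0.0831 RPM (SD, n = 6). The Pde6c difference was 0.52 ± 0.16 (SE; limma adjusted p = 0.0125), and 0.29 after centring, which lowers every difference. After centring Pde6c did not pass (limma adjusted p = 0.212). Sstr3, a somatostatin receptor, rose from 2.11 ± 1.43 RPM (SD, n = 6) in controls to 3.94 ± 1.14 RPM (SD, n = 5), with control 6 at 5.00 RPM inside the MO range. Its call was lost when any 1 of 9 animals was left out (limma adjusted p up to 0.0987, without MO 4). Gng2, a G protein gamma subunit (higher), the exchange factor Arhgef39 (higher) and Fam65b (lower, now Ripor2) did not pass (limma adjusted p = 0.067, 0.0752 and 0.0618).

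Immune and blood cell genes had rows on both sides. The largest rise of the table was that of LOC100134871, a beta globin gene now named Hbbl1, at 5.26, 12.8, 39.4, 36.1 and 12.8 RPM in MO animals. Its controls were at 0.914, 0.891, 1.39, 32.6, 3.55 and 4.13 RPM, so control 4 was inside the MO range and the other 5 were below all MO animals. The difference was 2.03 ± 0.60 (SE; limma adjusted p = 0.0125). No gene of the 8 erythroid markers had a row, so the red cell content of the samples was not tested. Reads of the other globin genes could be assigned to this one, and its level is uncertain for that reason.

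RT1-N1, a class I histocompatibility gene, was at 0.172, 0.00673, 1.31, 0.437 and 5.32 RPM in MO animals and at 15.1, 0.702, 5.11, 2.73, 11.975 and 17.9 RPM in controls. Controls 2, 3 and 4 lay inside the MO range, and MO 3 and MO 5 inside the control range. RT1-N1 fell by 1.94 ± 0.52 log2 units (SE; limma adjusted p = 0.00749), but genes of this family are close copies that differ between strains, so its counts are uncertain. Mx1, an antiviral GTPase induced by interferon, was at 1.83, 0.390, 1.75, 0.176 and 0.236 RPM in MO animals and at 0.0421, 0.114 and 0.334 RPM at the lowest, median and highest control. The largest values were those of MO 1 and MO 3, which carried the rise of 0.61 ± 0.21 (SE; limma adjusted p = 0.0183): without both the difference was 0.15 (limma adjusted p = 0.275). RT1-N1 and Mx1 were the only rows of 45 genes of the interferon, antigen presentation and acute phase list.

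Receptors for inflammatory ligands fell and rose. C5ar2, a receptor for complement fragment C5a, fell from 5.65 ± 2.39 RPM (SD, n = 6) in controls to 2.75 ± 1.40 RPM (SD, n = 5). Ackr2, a chemokine scavenger receptor, fell from 2.83 ± 1.14 RPM (SD, n = 6) in controls to 1.37 ± 0.717 RPM (SD, n = 5), with MO 1 at 2 reads. Tnfrsf11a, the receptor RANK, rose from 0.906 ± 0.379 RPM (SD, n = 6) in controls to 2.87 ± 1.94 RPM (SD, n = 5), and only MO 1 was inside the control range. C5ar2 and Ackr2 each lost the call when any 1 of 8 animals was left out, and Tnfrsf11a kept it in all 11 such fits.

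Of the mast cell proteases, Mcpt10 rose from 0.655 ± 0.396 RPM (SD, n = 6) in controls to 1.73 ± 0.542 RPM (SD, n = 5; difference 0.73 ± 0.24, SE; limma adjusted p = 0.0153). Mcpt9 rose from 0.601 ± 0.297 RPM (SD, n = 6) in controls to 1.23 ± 0.440 RPM (SD, n = 5; difference 0.48 ± 0.22, SE; limma adjusted p = 0.0428). In both rows MO 1 was the only MO animal inside the control range. The 2 genes lie close together on chromosome 15 with 2 related protease genes between them, and reads may be shared within the family. Without controls 3 and 4 neither passed (limma adjusted p = 0.0503 and 0.18). Mcpt10 passed with any 1 animal left out, whereas Mcpt9 lost the call when any 1 of 9 was left out (limma adjusted p up to 0.107).

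Other rows are of genes known from immune cells. Adamdec1, a protease of macrophages and dendritic cells, rose from 6.22 ± 3.41 to 12.5 ± 5.39 RPM, and Fam129c, a B cell gene now named Niban3, rose from 0.561 ± 0.629 to 2.3004 ± 1.73 RPM (SD, n = 6 and 5). Grn, which encodes the secreted growth factor progranulin, rose from 0.364 ± 0.186 to 1.18 ± 0.817 RPM, and Rab7b, a GTPase of late endosomes, from 1.08 ± 0.579 to 2.05 ± 0.485 RPM (SD, n = 6 and 5). Adamdec1 and Rab7b each lost the call when any 1 of 7 animals was left out, and Grn when any 1 of 4 was. Fam129c kept it with any 1 animal left out, but not without controls 3 and 4 together (limma adjusted p = 0.0635). The receptors Flt3 and Slamf9 and the Schlafen family member Slfn13 did not pass (limma adjusted p = 0.0718, 0.0727 and 0.114). None of the 11 macrophage, 11 lymphocyte or 8 neutrophil marker genes had a row, so the part of other cell types in these differences was not tested.

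Cela1, a pancreatic elastase, was the only gene with a row among the 103 markers in 11 cell type lists, 1 of 12 pancreatic acinar markers. It was at 0, 0.0910, 0.478, 0.264 and 0.939 RPM in MO animals, or 0 to 11 reads, and at 1.42, 4.26, 2.36, 1.27, 6.66 and 1.53 RPM in controls, or 13 to 78 reads. Every MO animal was below every control. Cela1 fell by 1.42 ± 0.30 log2 units (SE; limma adjusted p = 0.0013) and passed with any 1 animal left out. No hepatocyte marker of 10 had a row, so the tissue label could not be checked against hepatocyte genes in this table.

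Regulators of transcription and RNA moved in both directions. Zfp39, a zinc finger protein, was at 0.566, 1.11, 2.38, 1.43 and 1.99 RPM in MO animals. Control 4, at 0.935 RPM, lay inside the MO range, and the other controls were at 5.27 to 10.8 RPM. Zfp39 fell by 1.45 ± 0.40 log2 units (SE; limma adjusted p = 0.00932), and by 1.91 without controls 3 and 4. Lmo2, a LIM protein that bridges blood cell transcription factors, had 2 of its 4 curated transcripts listed with opposite directions. The row that rose was at 2.29, 3.33, 10.7, 5.83 and 7.99 RPM in MO animals and at 1.16, 1.21 and 5.44 RPM at the lowest, median and highest control (1.07 ± 0.39, SE; limma adjusted p = 0.0242). The row that fell was at 0.462, 0.473, 0.682, 0.0877 and 0.269 RPM in MO animals and at 0.392, 0.947 and 1.62 RPM in controls (-0.48 ± 0.21, SE; limma adjusted p = 0.0409). The groups overlapped in both rows. The row that fell lost the call when any 1 of 7 animals was left out, and the row that rose lost it without MO 3 or MO 5.

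Smaller rises were measured for the bone transcription factor Runx2 (0.429 ± 0.199 to 1.12 ± 0.571 RPM), a noncoding transcript (NR, 1 of 5 curated) of the zinc finger gene Patz1 (0.203 ± 0.209 to 0.744 ± 0.331 RPM) and the elongation factor Tcea2 (0.757 ± 0.313 to 2.33 ± 1.33 RPM; SD, n = 6 and 5). Adarb1, an enzyme that edits adenosine to inosine in RNA, rose from 1.01 ± 0.905 to 2.93 ± 2.00 RPM, with control 6 at 2.81 RPM. Rpp14, a subunit of the tRNA-processing RNase P, fell from 5.54 ± 2.42 to 2.71 ± 2.03 RPM (SD, n = 6 and 5). The calls of Patz1, Tcea2 and Adarb1 held with any 1 animal left out, and those of Runx2 (limma adjusted p = 0.0689 without MO 5) and Rpp14 (limma adjusted p = 0.126 without MO 2) did not. Adarb1 did not pass without controls 3 and 4 together (limma adjusted p = 0.082).

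Genes of DNA synthesis and repair were low in all animals. Pola2, the second subunit of the polymerase that primes replication, rose from 1.43 ± 0.626 to 3.16 ± 1.32 RPM, and Rrm2b, the p53-induced subunit of ribonucleotide reductase, fell from 1.38 ± 0.441 to 0.666 ± 0.544 RPM (SD, n = 6 and 5). Gen1, a nuclease that cuts DNA junctions, was at 2.50 ± 0.719 and 4.69 ± 2.20 RPM, and Tp53inp1, another p53-induced gene, at 2.35 ± 0.922 and 1.23 ± 0.724 RPM in controls and MO animals. Neither of these passed (limma adjusted p = 0.0725 and 0.0577). Pola2 and Rrm2b each lost the call when any 1 of 6 animals was left out.

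Cofactor and carrier genes rose or missed the threshold. Nmrk1, a kinase that makes NAD from nicotinamide riboside, was at 6.09, 11.2, 30.9, 9.94 and 11.4 RPM in MO animals and at 3.27, 4.89 and 11.6 RPM at the lowest, median and highest control. Only MO 3 was above all controls for Nmrk1. The difference was 1.03 ± 0.44 (SE; limma adjusted p = 0.0409), and the call was lost when any 1 of 7 animals was left out (limma adjusted p up to 0.114, without MO 3). Mocs2, which helps make the molybdenum cofactor, rose from 3.96 ± 1.88 to 8.68 ± 3.54 RPM (SD, n = 6 and 5), and lost the call when any 1 of 4 animals was left out. Sepp1, the selenium carrier selenoprotein P that liver secretes, was at 71.9, 106, 157, 132 and 62.6 RPM in MO animals and at 28.9, 58.7 and 84.2 RPM in controls. MO 2, MO 3 and MO 4 were above all controls, and Sepp1 did not pass (0.88 ± 0.53, SE; limma adjusted p = 0.108).

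Among the remaining rows, Apba2 had the clearest separation of the higher ones. This adaptor of the amyloid precursor protein was at 2.27, 4.91, 10.3, 7.56 and 4.61 RPM in MO animals, or 25 to 108 reads, and at 0.935, 1.45 and 1.86 RPM at the lowest, median and highest control, or 11 to 21 reads. The Apba2 difference was 1.41 ± 0.33 (SE; limma adjusted p = 0.00386), and it passed with any 1 animal left out and without controls 3 and 4. It also passed after centring, which is no check of library scale. Ccdc92, a coiled-coil protein, separated at lower depth, with 8 to 16 reads in MO animals and 2 to 8 in controls, or at least 0.703 RPM against at most 0.680 RPM (0.49 ± 0.18, SE; limma adjusted p = 0.0269). Ccdc92 lost the call without control 5 or MO 2, and also after centring, which lowers every difference. Ninj2, an adhesion protein, rose from 1.14 ± 0.615 to 2.47 ± 1.19 RPM (SD, n = 6 and 5), and lost the call when any 1 of 7 animals was left out.

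The largest difference of all rows was a fall of LOC257642, for which RefSeq's table had no match. Its values were 2.88, 0.378, 1.21, 0.0178 and 0.640 RPM in MO animals and 38.5, 3.15, 3.91, 10.6, 17.5 and 19.6 RPM in controls. All MO animals were below all controls, with MO 1 and control 2 next to each other. LOC257642 fell by 2.77 ± 0.48 log2 units (SE; limma adjusted p = 0.00025) and passed with any 1 animal left out. Of its 7 values under 9 RPM only 1 was a whole number of reads, so it may hold shared reads and its level is uncertain. Of the other rows listed under a locus number, LOC100360095 fell from 2.18 ± 0.751 to 0.781 ± 0.395 RPM and RGD1359290 from 3.85 ± 1.19 to 1.94 ± 0.894 RPM (SD, n = 6 and 5). RGD1359290 lost the call when any 1 of 7 animals was left out.

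**Figure D5:**
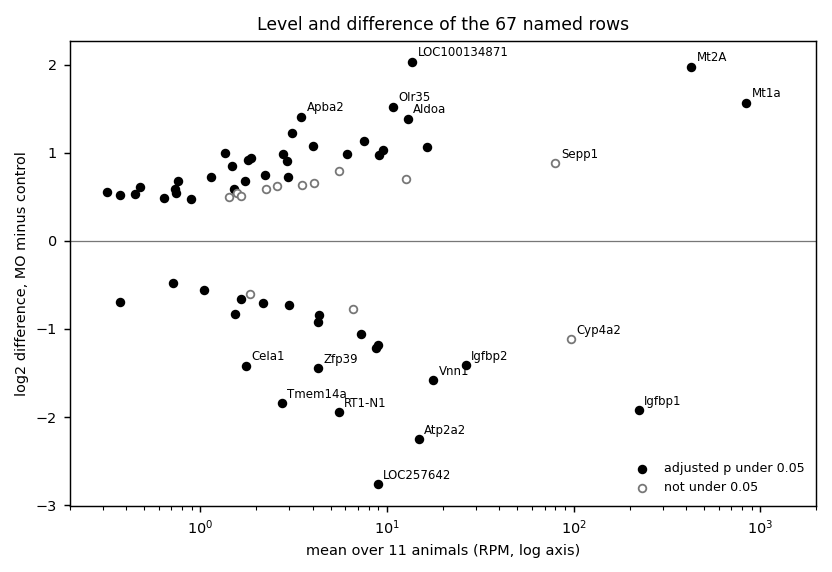
Mean RPM over 11 animals (log axis) and difference (MO minus control, log2(RPM + 1) scale) of the 67 named rows. Only Mt1a, Mt2A, Igfbp1, Cyp4a2 and Sepp1 lie above 50 RPM, and the last 2 are open points that did not pass.

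Over all named rows, 27 of the 54 that passed did so with any 1 of the 11 animals left out, 17 higher and 10 lower. These included LOC100134871, Mt2A, Olr35, Apba2, Aldoa, Smad2 and Ptprh among the higher rows and LOC257642, Atp2a2, RT1-N1, Igfbp1, Tmem14a, Vnn1, Zfp39 and Cela1 among the lower ones. Of the rows just named, Mt2A, Aldoa, Smad2 and Ptprh did not pass without controls 3 and 4 together. For 30 of 55 rows with at least 6 low values, all low values were whole multiples of 1 read within 0.05 of a read, and the other rows held fractions. The labels do not state how reads that match several transcripts or genes were counted.

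The same diet was also compared in 11 males of the same study, 6 control and 5 MO, whose table shares 3 gene symbols with the female table. The difference of the diet's effect between the sexes was tested for these with limma over all 4 groups, and 2 of 3 passed (66.7%). Pola2 was 0.75 ± 0.21 (SE) higher in MO females and -0.51 ± 0.21 (SE) in males, where it went from 1.83 ± 0.530 RPM (SD, n = 6) in controls to 0.963 ± 0.176 RPM (SD, n = 5) in MO. The Pola2 effects differed by 1.26 ± 0.29 (SE; limma adjusted p = 0.000975). Patz1 differed by 1.24 ± 0.32 (SE; limma adjusted p = 0.00136), 0.53 in females and -0.71 in males, but the 2 tables list different Patz1 transcripts, so this sets 1 transcript against another. RT1-N1 was lower in both sexes, -1.94 ± 0.59 (SE) in females and -1.60 ± 0.59 (SE) in males, with a difference between the sexes of -0.35 ± 0.83 (SE; limma adjusted p = 0.681). Both tables were filtered for a difference within 1 sex, so rows shared by them are not a sample of the transcriptome. That filter favours a large difference between the sexes in a row of opposite signs, and a small one in a row of equal signs. The p-values of Pola2 and Patz1 therefore give no support for a sex difference, and limma's variance model here rested on only 3 rows.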

How the data were processed

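Liver RNA-seq values of 11 female rats, 6 control and 5 MO, were analysed as 69 listed transcripts, and 2 rows are not reported here. STAR 2.3.1j, Partek and the build rn5 appear in the submitters' processing notes with no role, and no source used here gives the annotation or the counting rule. The values deposited by the authors are RPM with 1 added, as inferred from the values: the minimum was exactly 1, and 55.6% to 64.2% of values under 9 RPM fell on whole reads (tolerance 0.02 of a read) given a common step in each library. The remainder were fractions, so no count test was run. The p-value deposited by the authors is unadjusted, and their log2 column is the unsigned size of the difference, recovered from the deposited values for 67 of 69 rows.

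From these, log2(RPM + 1) was fitted with limma 3.58.1 (limma-trend, R 4.3.3), without a filter, and tested on simulated data first. Differences between sexes were fitted over 4 groups. The alternatives were other pseudocounts, filters on mean RPM, variance models, library weights, centring, a replicate block, an exact permutation test and leaving out animals. Leaving out 2 animals at a time was added after seeing the values. The transcripts and gene lists were chosen with earlier results of these data known. All named rows are described, with values per animal for the 10 largest differences in each direction and for members of the 18 gene lists, of which 12 had a row. RefSeq (GRCr8) gave current names for 66 rows, gene order, transcript counts and upstream sequences. For 21 rows the gene has several curated transcripts.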

Additional observations from a re-analysis of the deposited data

Results flagged for a closer look

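Single animals stood apart from the rest of their group in 13 of 134 groups of values tested by Dixon's criterion, which flags about 1 in 20 groups by chance. The criterion was applied to log2(RPM + 1), and the values below are given in RPM. In controls, control 6 was high for Pparg (0.342 RPM, others 0.00088 to 0.0304), Sstr3 (5.003 RPM, others 1.243 to 1.699) and Adarb1 (2.807 RPM, others 0.308 to 0.8882). Control 4 was low for Zfp39 (0.9346 RPM, others 5.271 to 10.79) and high for LOC100134871 (32.64 RPM, others 0.891 to 4.133). Control 2 was high for Olr35 (18.98 RPM, others 2.379 to 4.492), and control 3 was low for Slfn13 (4.544 RPM, others 9.091 to 12.07). In MO animals, MO 1 was low for Slc24a2 (0.09095 RPM, others 1.277 to 1.793), Ackr2 (0.1819 RPM, others 1.364 to 2.102) and Gng2 (1.004 RPM, others 3.081 to 3.977). MO 2 was high for Pde6c (1.092 RPM, others 0.4547 to 0.6156), MO 3 for RGD1359290 (3.507 RPM, others 1.293 to 1.775) and MO 4 for Obp3 (0.00687 RPM, others 0 to 0.0007).

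The effect of the diet on Pola2 differed between females and males by 1.264 on the log2 scale, in limma's test of the difference (adjusted p = 0.000975). For Patz1 the same test gave 1.244 (limma adjusted p = 0.00136), but it sets a noncoding transcript in females against another transcript in males, so sex and transcript cannot be told apart. Pola2 and Patz1 were tested only because each sex's list held them, with opposite signs, so these p-values give no support for a sex difference.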

How the results depend on the processing

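Of the 69 rows, 56 passed (35 higher, 21 lower). The exact permutation test left 4 (2 higher, 2 lower), with 62 rows at an unadjusted p under 0.05. Its smallest possible p-value of 0.00216 limits how many rows it can keep. An equal-variance model per row passed all 69 (45 higher, 24 lower) and library quality weights 66 (42 and 24), so most rows given as not passing passed there. Rows with a mean of at least 5 RPM, which are fewer, gave 20 (10 and 10), and centring gave 21 higher and 24 lower. Without controls 3 and 4, 32 passed (10 higher, 22 lower), and without MO 1 and MO 3, 39 passed (24 and 15). Leaving out 1 animal gave 34 to 53 calls (34 without MO 2, 37 without MO 5), 22 to 40 higher (22 without MO 3 or MO 5) and 10 to 24 lower (10 without MO 2, 11 without control 6, 13 without control 1 or MO 1). The replicate numbers were not taken to pair the animals, because not every same-number pair correlated over 0.1: the correlations of deviations were 0.333, 0.0548, -0.421, 0.252 and 0.186, and MO 1, MO 4 and MO 5 were most like the control of their own number. The replicate block was fitted without control 6, whose number no MO animal shares. With it 26 rows passed (17 higher, 9 lower), and 29 named rows lost the call, among them Igfbp1 and Aldoa. Leaving out control 6 without the block gave 47 calls (36 higher, 11 lower). No named row changed sign in females under any alternative. The difference between the sexes for RT1-N1, which did not pass, was 0.192922 with a pseudocount of 0.1, against -0.35. Except for the filter, which tests fewer rows, the cause of a changed count was not tested. With 1 read worth about 0.1 RPM, rows under 1 RPM rest on few reads.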
